A study of Arabidopsis thaliana with 6 samples.

Results

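miR160 and miR167 are the plant microRNA (miRNA) families that pair with mRNAs of auxin response factors (ARFs), the transcription factors through which the hormone auxin changes gene expression. They were followed here by small RNA sequencing of Arabidopsis thaliana seedlings aged 14 days, in 3 libraries of wild type (WT) and 3 of the mutant aar2-1, all grown on diluted MS medium in long days. AAR2 belongs to a protein family whose yeast and animal members help to assemble a spliceosome subunit. The labels name aar2-1 only as a genotype and give neither the lesion nor the number of plants per library. The libraries are described as biological replicates without saying what was kept separate, so p-values measure only the spread between these libraries. The deposited tables list 197 miRNA entries, an entry joining the miRNAs with one mature sequence. All entries with a member of either miR number were taken, in every arm, which gave 8 of the 197 entries, 3 of miR160 and 5 of miR167, with 11 member names. Values are in reads per 1000000 reads (RPM), and 1 read was worth 0.0868 to 0.142 RPM. The miRNA entries together summed to 46282 to 53127 RPM in WT and 18430 to 27681 RPM in aar2-1. The tables hold no mRNA, so neither the seedling label nor the ARF transcripts could be checked. In bulk RNA from seedlings, fewer cells making a miRNA and less miRNA per cell cannot be told apart.

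A miRNA gene is transcribed into a hairpin, from which DCL1 cuts a duplex of the 5′ arm (5p) and the 3′ arm (3p). In both families the 5p strand is the guide that is loaded into AGO1 and directs cleavage of target mRNAs, and the 3p strand is its passenger. miR160 acts on ARF10, ARF16 and ARF17, which are counted among the repressing ARFs, and is known for its part in root cap, leaf and embryo development. miR167 acts on ARF6 and ARF8, which activate transcription and are known for flower maturation and adventitious rooting.

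All 11 names were found in the RefSeq annotation of TAIR10.1, and they correspond to 8 distinct sequences from 7 precursors, none of which overlaps another annotated gene. The guide strands are shown first because they define the entries, with the seed (bases 2 to 8 from the 5′ end) in capitals. The sequence of miR160a-5p is shared by miR160b and miR160c-5p, and it occurs exactly 3 times in the genome. That of miR167a-5p is shared by miR167b and occurs 2 times. Reads of these 2 entries therefore cannot be assigned to one gene. The other 6 sequences occur once.
miR160a-5p: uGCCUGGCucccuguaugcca
miR167a-5p: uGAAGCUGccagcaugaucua
miR167d: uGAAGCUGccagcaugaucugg
miR167c-5p: uAAGCUGCcagcaugaucuug
From base 1 at the 5′ end, miR167d differs from miR167a-5p by A21G and by 1 extra base at its 3′ end, so that both have the seed GAAGCUG. miR167c-5p starts 1 base further along the same sequence, with 18 of 20 aligned bases identical, and its seed is AAGCUGC. The seed of miR160, GCCUGGC, is shared with none of them.

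The target sites printed next show which bases of the ARF mRNAs these guides can pair with. Sites were found by ungapped pairing of miR160a-5p and miR167a-5p along the longest coding transcript of each of 23 ARF genes, and capitals mark the Watson-Crick paired bases.
ARF17: UGGCAUgCAGGGAGCCAGGCA
ARF10: aGGaAUACAGGGAGCCAGGCA
ARF16: gGGuuUACAGGGAGCCAGGCA
ARF8: UAGAUCAgGCUGGCAGCUUgu
ARF6: gAGAUCAgGCUGGCAGCUUgu
On TAIR10.1 they lie in coding exons at 29274189 to 29274209 on chromosome 1 (ARF17, plus strand), 12115741 to 12115761 on chromosome 2 (ARF10, plus), 14704141 to 14704161 on chromosome 4 (ARF16, minus), 14633841 to 14633861 on chromosome 5 (ARF8, plus) and 10686478 to 10686498 on chromosome 1 (ARF6, minus). miR160 paired with 20, 19 and 18 of 21 bases in ARF17, ARF10 and ARF16, and miR167 with 18 and 17 of 21 bases in ARF8 and ARF6. With a penalty of 1 per mismatch and 0.5 per G:U pair, the known ARF targets scored at most 2.5 for miR160 and 4.0 for miR167, and every other ARF scored at least 6.0. IAR3, an auxin conjugate hydrolase gene and a known miR167 target outside the ARFs, scored 6.0 with 15 of 21 bases paired, so the score does not separate it from the other ARFs. The files hold no measurement of these mRNAs.

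The first comparison asked whether the summed abundance of each family differed between the genotypes. The miR167 family fell in aar2-1 to 37.7% of its WT mean. Its change stayed negative, but did not pass the test, under each of 3 scalings meant to remove a shift shared by most miRNAs. It had 982, 530 and 788 RPM in WT replicates 1 to 3 and 477, 246 and 144 RPM in aar2-1 replicates 1 to 3. Every mutant library lay below every WT library, although WT replicate 2 and aar2-1 replicate 1 were close. The WT mean was 767 ± 227 RPM and the mutant mean 289 ± 171 RPM (SD, n = 3 for both). The fold change, on the log2(RPM + 1) scale on which all tests were made, was -1.53 (SE 0.41, limma adjusted p 0.00726 over 76 tested families). Without WT replicate 1, the highest library, the adjusted p was 0.0570, and under the scalings it was 0.0668, 0.646 and 0.228.

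The miR160 family did not pass, with a WT mean of 44.1 ± 6.17 RPM and a mutant mean of 26.4 ± 12.8 RPM (SD, n = 3 for both). Its values were 48.7, 37.1 and 46.7 RPM in WT and 40.5, 23.2 and 15.4 RPM in aar2-1. The genotypes overlapped, since aar2-1 replicate 1 lay above WT replicate 2. The log2 fold change of -0.82 (SE 0.36, with limma adjusted p 0.0665) did not pass the threshold of 0.05, and it became positive under each of the 3 scalings. Without aar2-1 replicate 1 the log2 fold change was -1.17 and the adjusted p 0.00228. In that fit 61 of all 76 families passed as lower. Leaving out any other library gave no pass. Without aar2-1 replicate 3 the log2 fold change was -0.50 and the adjusted p 0.256.

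Most miRNAs had lower RPM in this mutant. Because the RPM denominator is not given, a fall shared by most miRNAs and a change of the denominator cannot be told apart. Of the tested families 63.2% passed, 59.2% as lower and 3.95% as higher. The scalings, which were one median-ratio factor per library, quantile normalization and centring on the library median, moved the median log2 fold change of all entries up by 0.85, 0.89 and 1.34. It then stood at 0.026, 0.064 and 0.52 over entries, and at 0.053, 0.11 and 0.24 over families. Centring thus went past 0, and a positive change after centring can lie below the median of all. Against 45 lower and 3 higher families as deposited, the scalings gave 18 lower and 13 higher, 12 lower and 12 higher, and 14 lower and 17 higher. As deposited, the median log2 fold change over families was -0.86. Relative to that median the change was -0.67 for miR167 and 0.046 for miR160. In order of decrease miR167 was 19th and miR160 43rd of 76. Within the miRNA total, miR167 made up 1.85%, 1.14% and 1.49% in WT and 1.72%, 1.18% and 0.781% in aar2-1, and miR160 made up 0.0916%, 0.0802% and 0.0884% in WT and 0.146%, 0.112% and 0.0838% in aar2-1. Both sets of shares overlapped. On the log2 scale, the ratio of miR167 to all other entries changed by -0.33 (two-sided exact permutation p = 0.50), and that of miR160 by 0.39 (exact permutation p = 0.30). Without the 3 entries of largest mean these were -0.13 (exact permutation p = 0.70) and 0.59 (exact permutation p = 0.10). They were -0.61 and 0.20 without aar2-1 replicate 1, and -0.036 and 0.58 without aar2-1 replicate 3. Without WT replicate 1 or WT replicate 2 that of miR167 was -0.16 or -0.51.

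The change of the families was also compared directly. In each library miR167 was the more abundant, by 20.2-, 14.3- and 16.9-fold in WT and by 11.8-, 10.6- and 9.32-fold in aar2-1, and these values did not overlap. The log2 ratio of miR160 to miR167 averaged -4.05 ± 0.25 in WT against -3.34 ± 0.19 in the mutant (SD, n = 3), and the means differed by 0.71. The two-sided exact permutation p was 0.10, the smallest that 3 libraries against 3 allow. Adjusted over the 7 ratios computed (Benjamini-Hochberg) it was 0.175. By rank of mean abundance among the 116 families, miR167 went from 10th in WT to 12th in aar2-1 and miR160 from 34th to 31st.

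**Figure D1:**
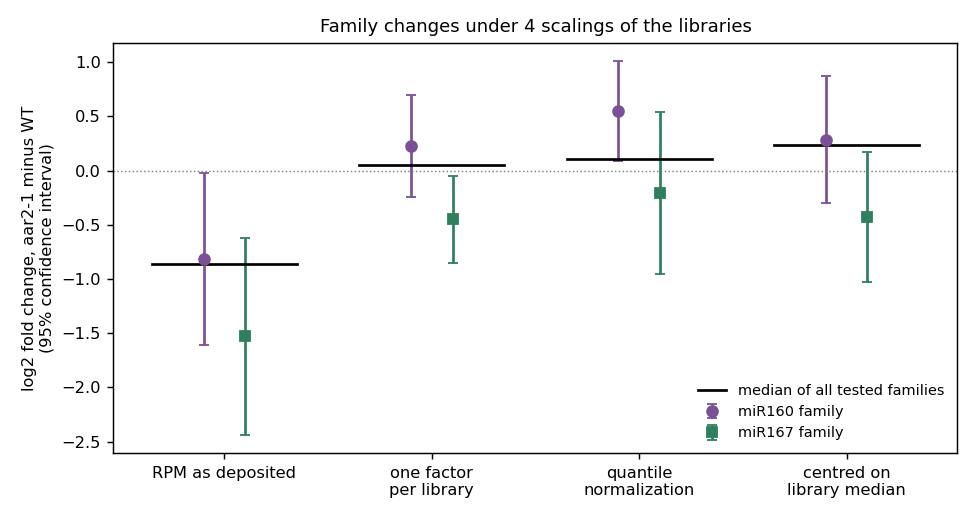
Log2 fold change of the miR160 and miR167 family sums (aar2-1 minus WT, vertical axis, with 95% confidence intervals) with the RPM as deposited and under 3 scalings, with black lines at the median of all tested families. The change of miR160 went from -0.82 to between 0.23 and 0.55 under the scalings and that of miR167 from -1.53 to between -0.45 and -0.21, with miR167 below miR160 in every case.

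The second comparison was made for each entry. Of the 8 entries, 7 had a mean of at least 1 RPM over the 6 libraries and were tested. Of these, 5 passed as lower in aar2-1 and 0 as higher, and the other 2 had negative log2 fold changes that did not pass. Among the 5, miR167c-3p reached the minimum of 1 RPM only through its WT values (mean 1.84 RPM in WT and 0.665 RPM in aar2-1). The background was high, since 63.4% of all 131 tested entries passed, 61.1% as lower and 2.29% as higher. That split of 80 lower and 3 higher entries became 24 and 23, 16 and 18, and 12 and 55 under the scalings, where 0 of the 7 passed as lower and 1, 1 and 2 as higher. The median log2 fold change was -0.80 over the 7 entries and -0.83 over all tested entries. All 3 aar2-1 values lay below all 3 WT values for 3 of the 7 entries, against 59.5% of all tested entries. In fits without one library, 2 to 6 of the 7 passed, and 62 to 108 of all 131. The fewest passed without aar2-1 replicate 2 (2 of the 7, 62 of all) and the most without aar2-1 replicate 1 (6 of the 7, 108 of all). Without WT replicate 1, WT replicate 3 or aar2-1 replicate 3, 3 of the 7 passed, and 66, 67 and 69 of all.

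**Figure D2:**
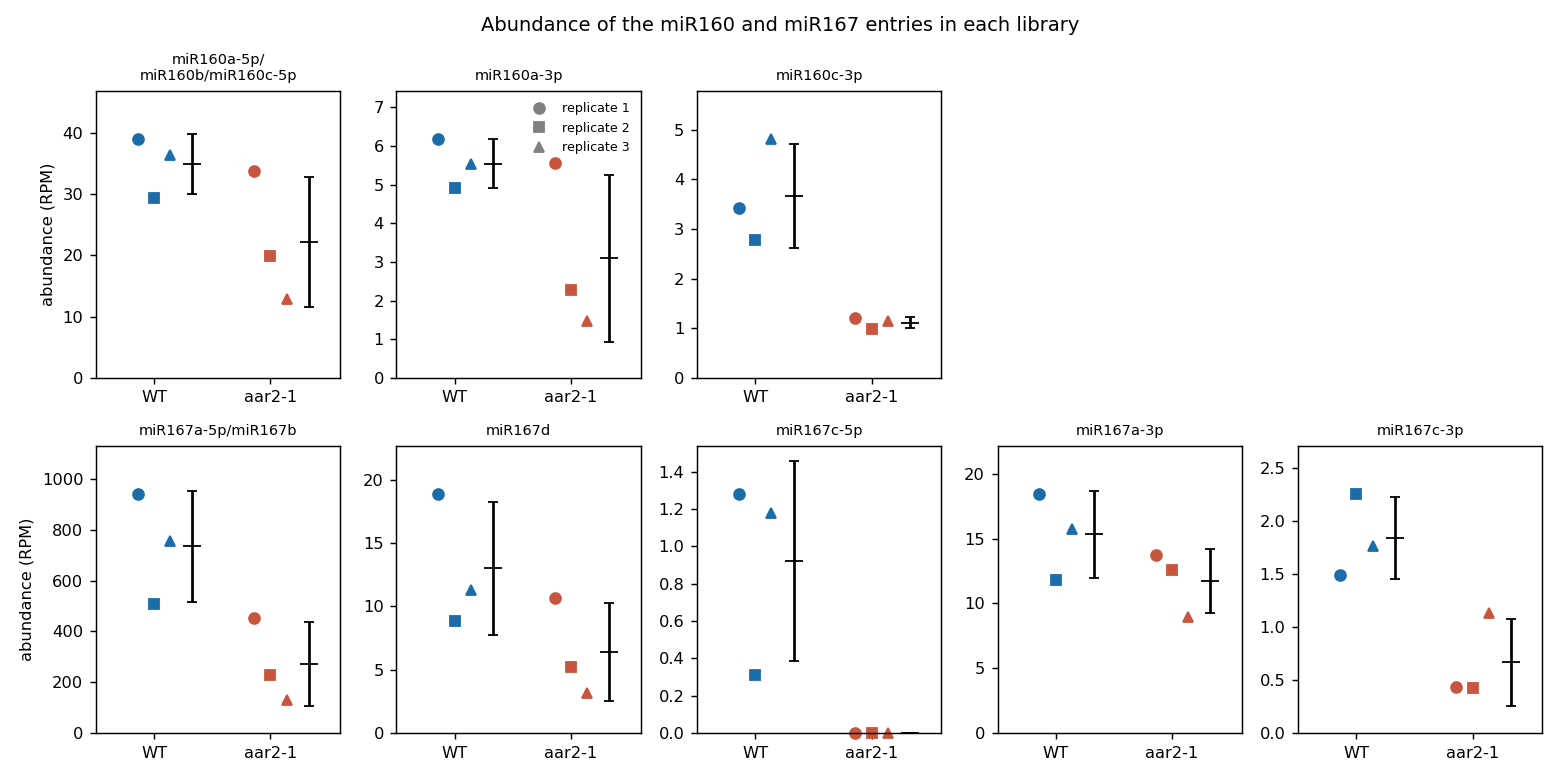
Abundance in RPM (vertical axes, linear and from 0, each panel with its own range) of the 3 miR160 entries (upper row) and the 5 miR167 entries (lower row) in WT and aar2-1. Symbols are libraries by replicate number, and black bars give the mean ± SD of 3. The genotypes are separate for miR160c-3p, miR167a-5p/miR167b, miR167c-5p and miR167c-3p and overlap for the other 4. For miR167c-5p, WT replicate 2 has only 3 reads. The library aar2-1 replicate 1 is the highest mutant library in 6 panels.

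Among the guide strands, the joint entry of miR167a-5p and miR167b carried nearly all of its family, 95.9% ± 0.284 in WT and 92.7% ± 2.02 in aar2-1 (SD, n = 3). The printed ARF6 and ARF8 sites were found with its sequence. The entry miR167d, identical in 20 of the 21 compared bases, was not scanned. The joint entry had 942, 507 and 758 RPM in WT and 452, 228 and 131 RPM in aar2-1, with no overlap. Its mean RPM fell 2.72-fold, and the log2 fold change of RPM + 1, a different measure, was -1.58 (SE 0.38, limma adjusted p 0.00222). The entry passed in each fit without one library. Under the scalings the change stayed negative, at -0.50, -0.29 and -0.24, but did not pass (adjusted p 0.0764, 0.458 and 0.424).

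The entry miR167d, from MIR167d on chromosome 1 (11137539 to 11137915, plus strand), is the 22-base variant. Its values were 18.9, 8.82 and 11.3 RPM in WT and 10.7, 5.24 and 3.18 RPM in aar2-1, and aar2-1 replicate 1 lay above WT replicate 2. It passed narrowly as lower (log2 fold change -0.99 with SE 0.39, and limma adjusted p 0.0346), but its change was positive after quantile normalization and after centring. The call was lost without WT replicate 1, WT replicate 3, aar2-1 replicate 2 or aar2-1 replicate 3, with adjusted p of 0.172, 0.0831, 0.138 and 0.115, and with no filter on low values (0.0634).

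Relative to the main guide, the values of miR167d were higher in the mutant, without passing the test. There were 2.01, 1.74 and 1.49 reads of miR167d per 100 reads of miR167a-5p/miR167b in WT and 2.36, 2.30 and 2.43 in aar2-1. The mutant libraries were all above the WT libraries. The log2 ratios differed by 0.58 (exact permutation p = 0.10, two-sided and the smallest possible, adjusted 0.175), on 28 to 177 reads of miR167d per library.

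The entry miR167c-5p, from MIR167c on chromosome 3 (1306622 to 1306781, minus strand), was left out of the main test because its mean was 0.461 RPM. It had 12, 3 and 10 reads in WT and 0 reads in each aar2-1 library. With 3 reads per library as the floor, the WT mean of 0.921 RPM was 2.69-fold the mean floor of the mutant libraries, 0.342 RPM. WT replicate 2, with 3 reads, was itself at the floor, so this ratio is no lower limit for each library. Tested with no filter on low values, it passed as lower (limma adjusted p 0.00336), as did 91 of all 197 entries. Its mutant values, all 0, have no spread, and it was not fitted under the scalings. Over the libraries of a genotype it made 0.124 reads per 100 reads of miR167a-5p/miR167b in WT, while 0 reads beside 7974 in aar2-1 allow up to 0.0376 per 100. The limit per 100 reads covers counting error only. The planned log2 ratio of this entry to miR167a-5p/miR167b depended on the pseudocount, at 0.68 with 1 RPM and -1.58 with 0.1 RPM, and shows no direction.

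The single guide entry of miR160, which joins miR160a-5p, miR160b and miR160c-5p, has its genes on chromosomes 2 (MIR160a, 16340279 to 16340363, plus strand), 4 (MIR160b, 9888982 to 9889070, plus) and 5 (MIR160c, 19009094 to 19009182, minus). It had 39.1, 29.4 and 36.3 RPM in WT and 33.8, 19.97 and 12.8 RPM in aar2-1. The first mutant library lay inside the WT range and the other two below it. The log2 fold change of -0.72 (SE 0.36, with limma adjusted p 0.0849) did not pass and turned positive under the 3 scalings, past the threshold after centring (0.62, adjusted p 0.0389). The median over all entries after centring was 0.52. Without aar2-1 replicate 1 the log2 fold change of the guide entry was -1.07 with an adjusted p of 0.00434. In that fit 105 of all 131 entries passed as lower. Leaving out any other library gave no pass for the guide entry. Without aar2-1 replicate 3 its log2 fold change was -0.40 with an adjusted p of 0.325.

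The passenger strands are shown inside their hairpins, for the 4 precursors with both arms annotated. Capitals mark the 2 annotated arms, 5p first, and the lower case holds the loop and the ends.
MIR160a: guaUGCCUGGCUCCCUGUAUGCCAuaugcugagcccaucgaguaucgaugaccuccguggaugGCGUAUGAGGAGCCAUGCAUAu
MIR160c: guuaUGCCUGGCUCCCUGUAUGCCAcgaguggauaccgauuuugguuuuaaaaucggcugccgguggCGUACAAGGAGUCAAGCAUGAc
MIR167a: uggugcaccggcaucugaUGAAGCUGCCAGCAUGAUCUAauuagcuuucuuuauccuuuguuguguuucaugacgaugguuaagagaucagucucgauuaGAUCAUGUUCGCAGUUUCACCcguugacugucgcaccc
MIR167c: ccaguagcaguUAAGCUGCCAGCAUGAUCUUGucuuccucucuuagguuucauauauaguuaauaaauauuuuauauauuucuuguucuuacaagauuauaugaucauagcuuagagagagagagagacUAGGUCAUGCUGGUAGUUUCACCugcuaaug
The arms are 39 and 42 bases apart in MIR160a and MIR160c, and 61 and 97 bases apart in MIR167a and MIR167c. Each passenger strand has its own sequence, so that its reads report on one gene, unlike those of the shared guides.

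Among the passenger strands of miR160, the entry miR160c-3p had 3.41, 2.77 and 4.82 RPM in WT and 1.21, 0.991 and 1.14 RPM in aar2-1, on 7 to 41 reads, and the genotypes were well apart. Its mean RPM fell 3.29-fold, and the log2 fold change of RPM + 1, a different measure, was -1.12 (SE 0.25, limma adjusted p 0.00127). The entry passed in each fit without one library but not under the scalings, and its change was positive, at 0.22, after centring. The entry miR160a-3p had 6.19, 4.92 and 5.53 RPM in WT and 5.55, 2.27 and 1.48 RPM in aar2-1. Its replicate 1 in aar2-1 lay within the WT range. It passed at the edge (log2 fold change -0.80 with SE 0.33, and limma adjusted p 0.0474), turned positive under the 3 scalings, and lost the call without WT replicate 1, WT replicate 3, aar2-1 replicate 2 or aar2-1 replicate 3 (adjusted p 0.102, 0.115, 0.179 and 0.170), with a pseudocount of 0.1 RPM (0.0502) or with no filter (0.0799). The difference between these passenger strands was not tested.

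Among those of miR167, the entry miR167a-3p, from MIR167a on chromosome 3 (8108072 to 8108209, plus strand), had 18.5, 11.8 and 15.8 RPM in WT and 13.7, 12.6 and 8.97 RPM in aar2-1. The genotypes overlapped in most of their range. The log2 fold change was -0.35 (95% confidence interval -1.03 to 0.32, limma adjusted p 0.315), and it was positive and past the threshold under each of the 3 scalings (0.65, 0.78 and 0.99). The entry miR167c-3p had 1.49, 2.26 and 1.76 RPM in WT and 0.434, 0.425 and 1.14 RPM in aar2-1, on 14, 22 and 15 reads against 5, 3 and 10. It passed as lower (log2 fold change -0.79 with SE 0.23, and limma adjusted p 0.00850), with a positive change after centring and an adjusted p of 0.0599 without aar2-1 replicate 2.

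**Figure D3:**
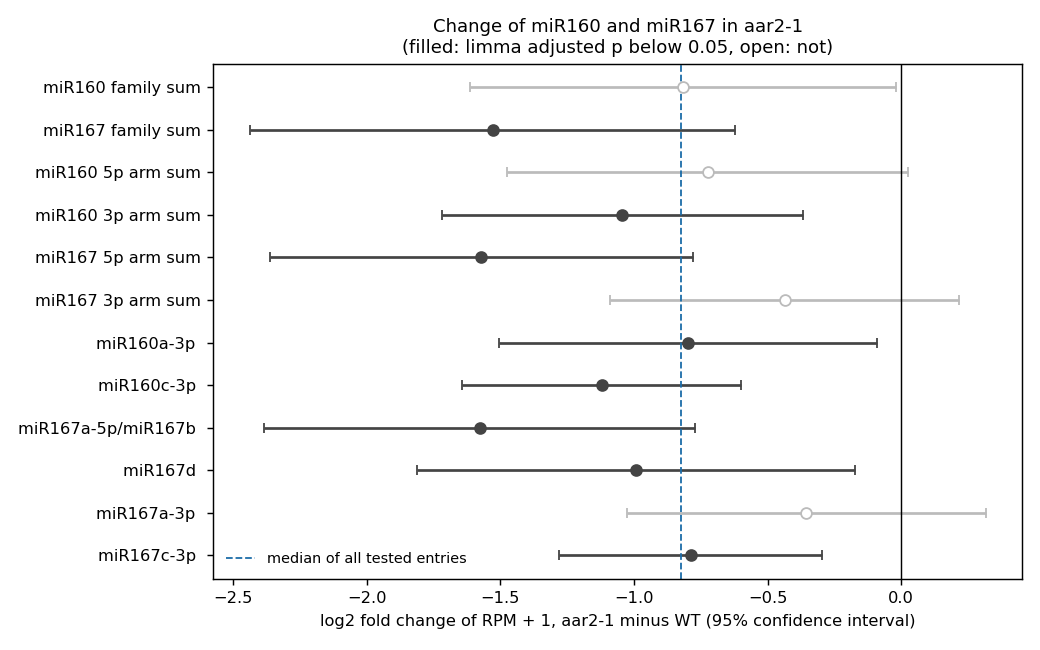
Log2 fold change of RPM + 1 (horizontal axis, aar2-1 minus WT, 95% confidence intervals) of the family sums, the arm sums and the tested entries of miR160 and miR167; the miR160 5p arm sum is the single miR160 guide entry. Filled points passed a limma adjusted p of 0.05, and the dashed line is the median of all tested entries, -0.83. The entry miR167a-5p/miR167b lies farthest to the left among the entries (-1.58; with a pseudocount of 0.1 RPM miR160c-3p does, at -1.60) and miR167a-3p nearest to 0 (-0.35). These are the RPM as deposited, and under the scalings only miR167a-5p/miR167b, the miR167 family and the miR167 5p arm stayed negative throughout.

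The arms were compared within each family, by sums over the entries of an arm. Among all 102 tested arm sums 63.7% passed, 60.8% as lower and 2.94% as higher, a split of 62 to 3 that became 24 to 18, 14 to 14 and 12 to 36 under the scalings. The miR167 5p arm fell from 749 ± 224 to 277 ± 169 RPM (log2 fold change -1.57 with SE 0.38, and limma adjusted p 0.00168), with a negative change under every scaling, which passed with one factor per library and not with the other 2 scalings. The miR167 3p arm had 17.2 ± 2.97 and 12.4 ± 2.08 RPM (log2 fold change -0.44 with SE 0.31, and limma adjusted p 0.213), which was positive under the 3 scalings, past the threshold in 2. In miR160 the 3p arm passed as lower, from 9.21 ± 1.37 to 4.21 ± 2.24 RPM (log2 fold change -1.04 with SE 0.32, and limma adjusted p 0.00955), though under none of the scalings, and its change was positive after centring. That call was lost without WT replicate 3 or aar2-1 replicate 2 (adjusted p 0.0584 and 0.0732). The miR160 5p arm is the single guide entry given above.

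The ratio of the arms differed between the genotypes in opposite directions in the families, and neither difference passed the test. For miR167 there were 2.07, 2.72 and 2.27 reads of 3p per 100 reads of 5p in WT and 3.05, 5.59 and 7.56 in aar2-1, so that each mutant library exceeded each WT library. The log2 ratio of 3p to 5p averaged -5.34 ± 0.21 in WT against -4.20 ± 0.68 in the mutant, and the means differed by 1.13. For miR160 there were 24.6, 26.1 and 28.5 reads of 3p per 100 of 5p in WT and 20.1, 16.3 and 20.4 in aar2-1, with all mutant values under all WT values. The log2 ratio averaged -1.81 ± 0.10 in WT against -2.13 ± 0.18 in the mutant, and the means differed by -0.32. Both had an exact permutation p of 0.10 (two-sided), which is the smallest possible and 0.175 after adjustment. With a pseudocount of 5 RPM the miR160 difference was -0.027 (exact permutation p = 0.90). A factor common to a library cancels in these ratios except through the pseudocount.

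Within miR167 the entry miR167a-3p had 1.96, 2.33 and 2.08 reads per 100 of miR167a-5p/miR167b in WT and 3.03, 5.53 and 6.87 in aar2-1. The guide count includes MIR167b, of which no 3p strand is listed, so the ratio is not that of one hairpin. In miR160 the entry miR160c-3p gave 8.74, 9.41 and 13.3 reads per 100 guide reads in WT and 3.60, 4.96 and 8.85 in aar2-1. The entry miR160a-3p gave 15.8, 16.7 and 15.2 against 16.5, 11.3 and 11.5. Taken singly, the miR160 strands overlapped between the genotypes.

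**Figure D4:**
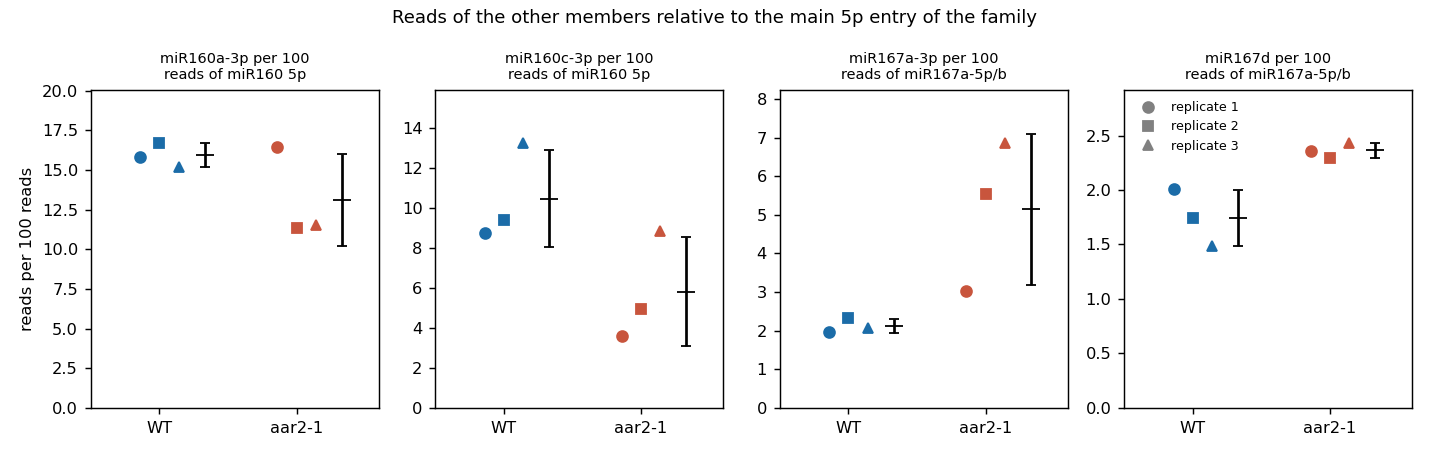
Reads of miR160a-3p, miR160c-3p, miR167a-3p and miR167d per 100 reads of the main 5p entry of their family (vertical axes, linear and from 0) in WT and aar2-1. Symbols are libraries by replicate number, and black bars give the mean ± SD of 3. The mutant libraries lie above WT for miR167a-3p (3.03 to 6.87 against 1.96 to 2.33) and miR167d (2.30 to 2.43 against 1.49 to 2.01).

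By level, the entries in WT ran from miR167a-5p/miR167b (735 ± 218 RPM) through the miR160 guide (34.9 ± 4.96), miR167a-3p (15.3 ± 3.36), miR167d (13.0 ± 5.25), miR160a-3p (5.55 ± 0.634), miR160c-3p (3.67 ± 1.05) and miR167c-3p (1.84 ± 0.386) to miR167c-5p (0.921 ± 0.534). Of the neighbours in this order, miR167a-3p and miR167d overlapped, and the other neighbours did not. Among all 197 entries they ranked between 11th and 141st in WT.

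Other miRNAs of auxin signalling were read beside them. The list held miR390, which starts the TAS3 small RNAs against ARF2, ARF3 and ARF4, miR393, which acts on the TIR1 and AFB auxin receptors, miR164, which acts on NAC1 and CUC mRNAs, and miR847, which acts on the mRNA of the auxin repressor IAA28. Of its 11 entries, all tested, 4 passed as lower and 0 as higher, against 61.1% lower among all entries, with a median log2 fold change of -0.69. The 4 were miR847, miR164c-3p, the miR393a-5p/miR393b-5p guide and miR390b-3p. Except for miR164c-3p, they reached the minimum of 1 RPM only through their WT values. Their means in aar2-1 were 0.392 RPM for miR847, 0.877 RPM for the miR393 guide and 0.706 RPM for miR390b-3p. The entry miR847 had 2.77, 1.33 and 2.12 RPM in WT and 0.694, 0.142 and 0.341 RPM in aar2-1 (log2 fold change -1.13, limma adjusted p 9.57e-04). It lay below the floor of 3 reads in aar2-1 replicate 2 (0.425 RPM) and at it in aar2-1 replicate 3 (0.341 RPM). No values under the scalings are given for this list. The guide of miR390 had 57.1 ± 14.5 and 35.4 ± 16.4 RPM and did not pass (log2 fold change -0.74, limma adjusted p 0.0825). The miR393 family, with a WT mean of 410 RPM, did not pass (log2 fold change -0.34, limma adjusted p 0.277). Its guide entry had 2.21 RPM of this. Nor did the miR164 family pass (-0.50, limma adjusted p 0.228). The entry miR393a-3p had a positive change of 0.42 that did not pass (limma adjusted p 0.238).

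The families nearest to each of these by profile were found among 39 others with a mean of at least 10 RPM, by the root mean square difference of centred log2(RPM + 1) over the 6 libraries. Nearest to miR160 were miR157 (0.11), miR390 (0.13) and miR156 (0.16). Nearest to miR167 were miR403 (0.18), miR822 (0.19) and miR396 (0.20). The difference between miR160 and miR167 themselves was 0.40. The family miR157 had a log2 fold change of -0.83 (limma adjusted p 0.0665), and miR403 one of -1.37 (limma adjusted p 0.00589). Families chosen by their profile over these same libraries must have similar changes, so the likeness is no separate result.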

How the data were processed

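Small RNA of seedlings was sequenced in 6 libraries, and genotype and replicate number were taken from the sample titles. The authors deposited 1 table per library in RPM. The unit was inferred from the values, since every one was a whole number of reads, to within 0.02, once divided by what 1 read is worth in its table. Per the submitters' processing notes, cutadapt, Bowtie and the build TAIR10 were used; their roles and versions, the denominator, the read lengths and the handling of reads with several matches are not given in the sources used here. The implied denominators were 7062198 to 11524176 reads. Sequences and positions come from the RefSeq annotation of TAIR10.1.

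Entries, family sums and arm sums with a mean of at least 1 RPM were each log2-transformed with a pseudocount of 1 RPM and compared between genotypes with limma 3.58.1 in R 4.3.3, allowing the variance to follow abundance, two-sided, with Benjamini-Hochberg adjustment over all tested units and a threshold of 0.05. The fit was tested on simulated data in which some of the entries changed, in both directions. A shift shared by most miRNAs, as in these libraries, was not simulated. An arm was read from the name or, where the name has none, from the place in the hairpin. Ratios with 1 value per library had a pseudocount of 1 RPM and exact permutation tests. The alternatives were pseudocounts of 0.1 and 5, other filters, 3 scalings (one median-ratio factor per library, quantile normalization, centring on the library median), a replicate block and leaving out each library. All entries of both families, the auxin list and the 3 nearest families of each are named. The members and lists were chosen with earlier results of these data known. Other steps ran in Python 3.11.15 with scipy 1.17.1, pandas 2.3.3, matplotlib 3.10.9 and numpy 2.4.6.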

Additional observations from a re-analysis of the deposited data

How the results depend on the processing

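All values here are log2 fold changes or differences of log2 ratios unless named as counts or p-values. With one median-ratio factor per library, quantile normalization and centring, in this order, the change of the miR160 family became 0.23, 0.55 and 0.28, that of the miR160 5p arm 0.31, 0.44 and 0.57, that of the miR167 3p arm 0.58, 0.71 and 0.86, that of miR160a-5p/miR160b/miR160c-5p 0.31, 0.20 and 0.62, that of miR160a-3p 0.026, 0.13 and 0.54, and that of miR167a-3p 0.65, 0.78 and 0.99. The miR167 family kept its sign without passing, at -0.45, -0.21 and -0.43, and the miR160 3p arm had -0.14, -0.15 and 0.26. The miR167 5p arm did not pass after quantile normalization (-0.28) or centring (-0.27). The change of miR167d was 0.30 after quantile normalization and 0.35 after centring, and after centring that of miR160c-3p was 0.22 and that of miR167c-3p 0.55. The median over all entries after centring was 0.52, above the centred values of miR167d and miR160c-3p. Over all arms it was 0.46, above that of the miR160 3p arm. The number of entries past the threshold, 5 of 7, became 1, 1 and 2 under the scalings, all of them higher, and 1 of 3 with a minimum of 10 RPM. Among all entries, 83 of 131 passed as deposited and 45 of 69 with that minimum. Under the scalings 47 of 128, 34 of 131 and 67 of 131 passed. The scalings assume that most miRNAs do not change, and which scale is right was not tested.

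With that minimum the miR160 family passed (-0.82, adjusted p 0.0444). With a pseudocount of 0.1 RPM 4 of 7 entries passed and with no filter 4 of 8, against 82 of 131 and 98 of 197 among all entries. From pseudocount 5 to 0.1 the change ran from -0.27 to -1.45 for miR167c-3p and from -0.50 to -1.60 for miR160c-3p. With a pseudocount of 5 RPM the difference was -0.027 for miR160 3p to 5p, 0.88 for miR167d to miR167a-5p/miR167b and 1.32 for miR167c-5p to the same entry, and with 0.1 RPM the last was -1.58. Leaving out each library gave -1.17 to -0.50 for the miR160 family, -1.97 to -1.11 for the miR167 family, and -1.07 to -0.40 and -1.37 to -0.82 for the miR160 5p and 3p arms. In these fits 2 to 6 of the 7 entries passed, and 62 to 108 of all 131. The replicate block was tried although it is not known that the numbers pair the samples. Same-numbered deviations correlated at 0.49, 0.047 and -0.15, and 2 of 6 libraries correlated best with their own number. With 3 libraries per genotype these values cannot decide whether the samples are paired. With the block the miR160 family (-0.82, adjusted p 0.0245) and the miR160 5p arm (-0.72, adjusted p 0.03995) passed, as did 6 of 7 entries and 98 of all 131. The planned count models were not run. The deposited values are RPM, and each table had fewer low values than the rule set for using recovered reads in a count model. The reads printed here are such recovered values. The values of miR160a-3p, miR160c-3p and miR167c-3p rest on 3 to 64 reads per library, which limits their precision.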
